A study of Rattus norvegicus with 6 samples.

Results

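Snap25 and Zwint encode neuronal proteins that bind each other, and their transcripts were followed here in retinal ganglion cells, which carry the output of the retina to the brain. Snap25 (1387073_at) and Zwint (1370803_at) were chosen by exact gene symbol in the platform annotation, which gave 1 probe set for each, so 2 of 14217 genes named by a single symbol are described. Both were picked with earlier results of these arrays known, including their difference between eyes, and that difference is therefore given as a description without a test. The cells came from both eyes of 3 adult male Brown Norway rats with raised intraocular pressure in 1 eye, a model of glaucoma in which hypertonic saline injected into an episcleral vein keeps the pressure high. The fellow eye served as control, and pressure had been raised for 10 days. Ganglion cells of both sides had been marked by Fluorogold injected into the superior colliculus, and 2000 cells per eye were taken by laser capture. The groups are the left eyes (OS, n = 3 arrays) and the right eyes (OD, n = 3 arrays), 1 array per eye. The labels do not say which eye of a rat had the raised pressure, so the values compare sides of the animal and not a treated with an untreated eye.

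SNAP25 is a plasma membrane SNARE protein. It pairs with syntaxin 1 and with the vesicle protein VAMP2 in the complex that fuses synaptic vesicles with the membrane, and in the retina it is a protein of conventional and ribbon synapses and of neuronal processes. ZWINT was named for its binding to ZW10 at the kinetochore, where it helps to hold the spindle checkpoint in dividing cells. The rat protein was also isolated from brain as a SNAP25-interacting protein, and its gene is listed in RefSeq under the synonym Sip30. Ganglion cells do not divide, so the kinetochore role is background from other cells.

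Array values are scaled intensities in arbitrary units, set to 1 common mean on every array by the submitters. The array median lay between 313.3 and 369.4. The 95th percentile of 27 control probe sets for bacterial RNAs served as a background limit. It ran from 399.6 to 546.6 on the OS arrays and from 260.5 to 590.8 on the OD arrays. Both arrays of rat 2 had the highest limits, and 34.9% (OS) and 34.8% (OD) of their probe sets exceeded it. In rats 1 and 3 the limit was higher in OS, at 399.6 and 409.3, than in OD, at 260.5 and 292.9. The share of probe sets above it was smaller there in OS, 47.6% and 45.5%, than in OD, 58.1% and 52.1%. The part of this in the differences of Snap25 and Zwint was not tested.

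In all 3 rats the left eye (OS) gave less Snap25 signal than the right eye (OD), a direction that 14.0% of all 15521 tested probe sets shared in every rat. It measured 1190.9, 560.3 and 2514.3 in the OS eyes of rats 1, 2 and 3, against 6005.8, 1546.4 and 8031.8 in their OD eyes. The OS eye of rat 3 was brighter than the OD eye of rat 2, so the groups overlapped although each rat had its lower value in OS. The OS signal was 19.8% of the OD signal in rat 1, 36.2% in rat 2 and 31.3% in rat 3. All 6 Snap25 values lay above the background limit of their arrays, that of the OS eye of rat 2 by only 1.03 times. On the scale of log2(intensity + 16) the differences, OS minus OD, were -2.32, -1.44 and -1.67, with a mean of -1.81 ± 0.46 (SD, n = 3 rats).

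Zwint signal was likewise weaker in the left eye of all 3 rats. It measured 791.6, 504.9 and 1461.8 in the OS eyes of rats 1, 2 and 3, against 5723.3, 1980.1 and 9162.7 in their OD eyes. The highest OS value lay below the lowest OD value, so the groups did not overlap. The OS signal was 13.8% of the OD signal in rat 1, 25.5% in rat 2 and 15.95% in rat 3. The OS value of rat 2 lay below the background limit, at 0.92 of it, so the size of the difference in that rat is uncertain. The log2 differences were -2.83, -1.94 and -2.63, with a mean of -2.47 ± 0.47 (SD, n = 3 rats). The mean over rats 1 and 3, where every value was above the limit, was -2.73. The RefSeq table of rat assembly GRCr8 also lists a pseudogene, Zwint-ps1, and whether its transcripts bind the Zwint probe set was not tested.

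**Figure D1:**
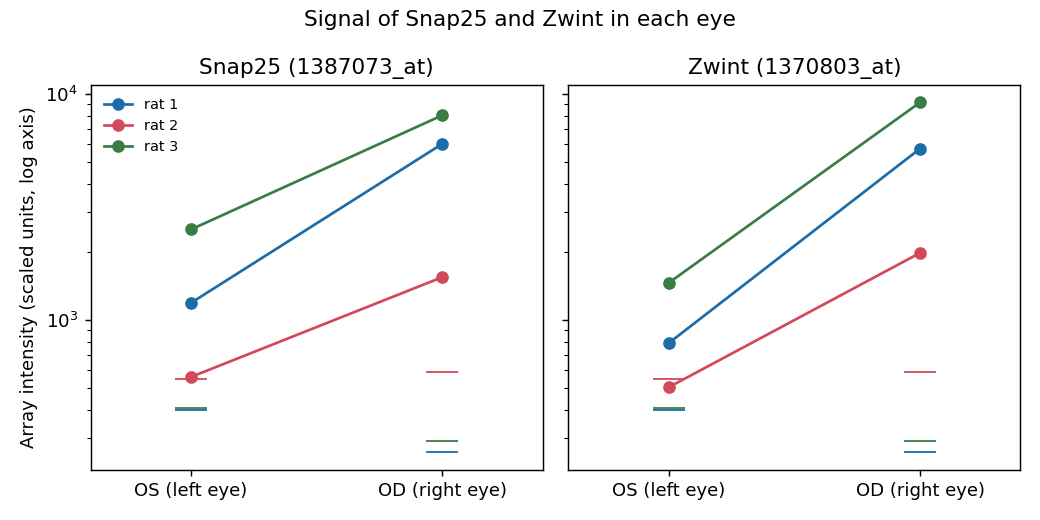
Array intensity (scaled units, log axis) of Snap25 and Zwint in the OS and OD eye of each rat. Points joined by a line are the eyes of 1 rat, and short bars mark the background limit of the same array. Every line is lower at OS, and only the Zwint value of rat 2 in OS, 504.9, lies under its limit.

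Over all probe sets tested, 14.5% were higher in OS in all 3 rats. A difference of at least 2-fold downward in every rat, which both genes had, was found in 1.46% of probe sets. In 5.08% all OS arrays lay below all OD arrays, as for Zwint. By mean difference Zwint was the 90th and Snap25 the 458th most negative probe set. A largest single-rat value as low as that of Zwint occurred in 25 probe sets, Zwint included, and as low as that of Snap25 in 91. For Zwint that value is the one of rat 2, whose OS signal was below its limit, so its position is uncertain. These positions describe the choice of the genes. By limma's moderated test with rat as a block, 2 of the 15521 probe sets (0.0129%) had an adjusted p under 0.05 between eyes. That count is background for Snap25 and Zwint, whose own difference is given without a test.

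The level of the genes also varied between rats, a contrast that played no part in their choice. Averaged over both eyes on the log2 scale, Snap25 stood at 12.14 in rat 3, 11.40 in rat 1 and 9.89 in rat 2. The order for Zwint was the same, with 11.85 in rat 3, 11.07 in rat 1 and 9.99 in rat 2. Rat 3 exceeded rat 2 by 2.25 for Snap25 and by 1.85 for Zwint, and exceeded rat 1 by 0.74 and 0.77. Limma's moderated F test across rats, with eye as a term, gave an adjusted p of 0.067 for Snap25 and 0.204 for Zwint (unadjusted p = 0.00196 and 0.0136). Neither gene passed, where 390 probe sets (2.51%) did. The order of rats is thus not separated from the spread within rats at this threshold. Without rat 1 the 2 remaining rats differed for both genes, at an adjusted p of 0.00535 for Snap25 and 0.0444 for Zwint. Without rat 2 and without rat 3 neither passed. Rat 2, with the lowest levels of both genes, had also the highest background limits, and the part of this in the result was not tested. Both eyes of a rat are 1 animal, so the test sets animals against the residual of 6 arrays.

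Genes for proteins that act with SNAP25 in fusion showed no common direction between eyes. Of 21 genes listed for the presynaptic SNARE machinery, 18 were on the array under 1 symbol and 14 were bright enough to test. By limma, 0 passed and 2 had an unadjusted p under 0.05, which 6.91% of all tested probe sets had. Of the 14, 1 was lower in OS in all 3 rats and 2 were higher. Over all tested probe sets 14.0% were lower and 14.5% higher in every rat. The median difference of the 14 was -0.36, against -0.07 over all 8594 genes tested.

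The direct partners were dim. Stx1a (1387360_at), syntaxin 1A, the other SNARE of the plasma membrane, measured 342.9, 335.4 and 390.0 in OS eyes, against 131.8, 1208.7 and 43.2 in OD eyes. Only 1 of the 6 Stx1a values exceeded its background limit, and the second Stx1a probe set had a mean of the other sign. Vamp2 (1369974_at), the vesicle SNARE, measured 268.5, 565.5 and 188.9 in OS eyes, against 31.4, 1456.5 and 553.9 in OD eyes, a mean difference of -0.08 ± 2.31 with no common direction. Syt1 (1384716_at), the calcium sensor of fast release, was too dim to test, with 690.2, 40.6 and 61.4 in OS eyes and 325.9, 28.0 and 240.2 in OD eyes. These arrays therefore say little about the SNARE partners themselves.

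Brighter genes of the same machinery gave firmer values. Cplx1 (1398357_at), complexin 1, which binds the assembled SNARE complex, was the gene lower in all 3 rats. It measured 1823.5, 1711.7 and 2304.8 in OS eyes, against 2468.7, 2528.0 and 3091.9 in OD eyes, and the difference was -0.47 ± 0.08 (limma adjusted p = 0.854). All its OS values lay below all its OD values, as in 5.08% of all tested probe sets. Syp (1368276_at), the vesicle protein synaptophysin, measured 3048.9, 3629.8 and 3308.6 in OS eyes and 4265.6, 3387.7 and 4242.3 in OD eyes. Its difference was -0.25 ± 0.31, lower in 2 of 3 rats (limma adjusted p = 0.922). Cplx1 and Syp were named after their values were seen, as the gene lower in every rat and as a bright vesicle gene.

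The SNARE genes with the smallest p went both ways. Cplx2, complexin 2, differed by -1.66 ± 3.18 (limma adjusted p = 0.698) because its OS value in rat 1 was 53.1, while the other 5 values lay between 1874.8 and 3275.9. Napa encodes alpha-SNAP, which with NSF takes SNARE complexes apart after fusion. The OS eye was higher in each of the 3 rats, by 1.30 ± 1.24 (limma adjusted p = 0.717). Vamp1, a vesicle SNARE related to Vamp2, differed by -1.06 ± 0.96 (limma adjusted p = 0.781), and both of its other probe sets had means of the opposite sign. Rims1, an active zone scaffold gene, was higher in OS by 1.80 ± 1.05 but exceeded the limit on 1 OS and 1 OD array. No single direction holds across these genes.

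Genes for proteins that fold, carry or modify SNAP25 were mixed too. Of 14 listed, 12 were on the array and 8 were tested. None passed by limma, and 0 had an unadjusted p under 0.05. Of the 8, 1 was lower and 2 were higher in OS in all 3 rats (14.0% and 14.5% of all tested probe sets). The median was 0.18. Dnajc5 encodes the cysteine-string protein, a vesicle cochaperone that keeps SNAP25 folded. It measured 1360.0, 651.5 and 1485.9 in OS eyes, against 1617.7, 1543.8 and 4088.6 in OD eyes, a difference of -0.97 ± 0.64 (limma adjusted p = 0.735; 1 of its 3 probe sets had the other sign). Snapin, a SNAP25-binding adaptor, differed by 0.86 ± 0.93 and Sgta, a cochaperone, by 0.80 ± 0.69, each higher in 3 of 3 rats; 1 of the 2 Snapin probe sets had the other sign. Rab3a, a vesicle GTPase, differed by -0.73 ± 0.67, lower in 2 of 3 rats, and 1 of its 2 probe sets had the other sign.

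The paralogs of SNAP25 serve membrane fusion outside synapses. Snap23 was too dim to test and measured 106.7, 861.4 and 130.1 in OS eyes, against 479.8, 1003.7 and 29.1 in OD eyes. Snap29 measured 484.0, 310.5 and 29.0 in OS eyes, against 527.0, 414.0 and 384.1 in OD eyes, which gives -1.22 ± 1.68 on the log2 scale (limma adjusted p = 0.851; 1 of its 3 probe sets had the other sign). Most of that difference came from rat 3, at -3.15, while rats 1 and 2 had -0.12 and -0.40. For neither paralog did more than 1 of 3 OS arrays exceed the limit.

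On the side of Zwint, kinetochore genes were mostly near background. Of 21 listed outer kinetochore and spindle checkpoint genes, 18 were on the array, 4 were tested and 4 exceeded the background limit on none of the 6 arrays. By limma 0 passed and 0 had an unadjusted p under 0.05. Of the 4 tested, 1 was lower and 1 higher in OS in all 3 rats (14.0% and 14.5% of all tested probe sets). Zw10, which brings dynein to kinetochores and also tethers vesicles at the endoplasmic reticulum, was above the limit on all 6 arrays. It measured 705.6, 1128.0 and 538.9 in OS eyes, against 1062.1, 947.0 and 1170.9 in OD eyes, a difference of -0.48 ± 0.68 (limma adjusted p = 0.888). Its groups overlapped, and the OS eye was higher in rat 2. Bub3, a checkpoint gene, was lower in OS in 3 of 3 rats by -0.995 ± 0.966 (1 of its 2 probe sets had the other sign), and the Ndc80 complex gene Spc25 was higher in 3 of 3 by 1.43 ± 1.17. Zwilch, a partner of ZW10, differed by 1.21 ± 2.27 and exceeded the limit on none of the OD arrays.

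Proliferation markers were mostly dim and mixed in direction. Of 16 listed, 15 were on the array and 6 were tested, of which none passed by limma at the adjusted or the unadjusted threshold. Of the 6, 0 were lower and 2 were higher in OS in all 3 rats (14.0% and 14.5% of all tested probe sets), and the median was 0.53. The 2 were Mki67, the Ki-67 antigen gene, at 0.88 ± 0.45 and Top2a, a DNA topoisomerase gene, at 0.74 ± 0.57. Mki67 was bright in rats 1 and 2 and below the limit in rat 3. It measured 2405.4, 2057.4 and 139.3 in OS eyes, against 1486.3, 1394.5 and 43.4 in OD eyes. Mcm5, a replication helicase gene, differed by 1.36 ± 1.88 and the cyclin gene Ccnb2 by -1.02 ± 2.27. Over all 15 genes on the array the summed signal was 5583.5 to 7703.0 in OS eyes and 4379.6 to 5966.4 in OD eyes, higher in OS in 3 of 3 rats. Only 4 to 7 of the 15 exceeded the limit on OS arrays and 3 to 8 on OD arrays. The sums therefore hold much signal below the limit, which was itself higher in OS in rats 1 and 3.

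Outside mitosis, ZW10 works with RINT1 and NBAS in a tether that receives vesicles at the endoplasmic reticulum through the SNAREs STX18, SEC22B, USE1 and BNIP1. All 9 listed genes were on the array and 7 were tested, with 0 past the limma threshold and 0 at an unadjusted p under 0.05. The median was -0.44, with 1 gene lower and 0 higher in all 3 rats (14.0% and 14.5% of all tested probe sets). That gene was the SNARE gene Sec22b, at 89.1, 309.2 and 534.4 in OS eyes against 808.4, 489.8 and 1576.6 in OD eyes. Its difference was -1.71 ± 1.18 (limma adjusted p = 0.730), and its second probe set had a mean of the other sign. Bnip1 differed by -0.62 ± 1.54, Stx18 by -0.44 ± 2.85 and the SNARE regulator gene Scfd1 by 0.30 ± 0.98.

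**Figure D2:**
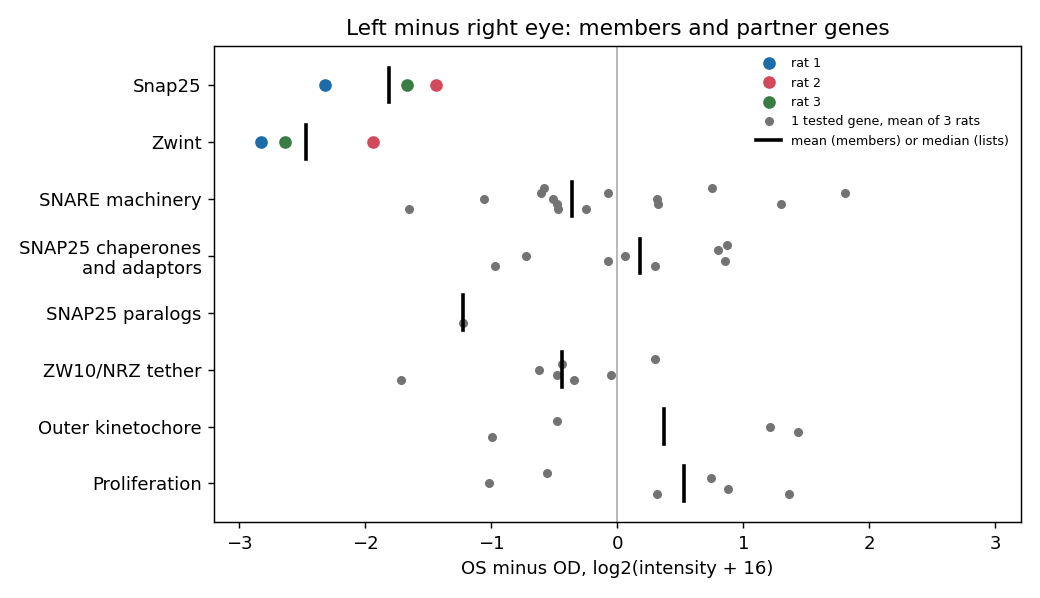
Differences between eyes, OS minus OD, on the log2(intensity + 16) scale. Coloured points give Snap25 and Zwint in each rat, grey points the mean of each tested partner gene, and black bars the mean or list median. The means of Snap25 and Zwint, -1.81 and -2.47, lie to the left of every tested gene of the 6 partner lists, as their choice favours.

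Snap25 and Zwint followed nearly the same pattern over the 6 arrays, with Pearson's r = 0.96 on the log2 scale. The 6 arrays come from 3 rats and both genes were chosen for their difference between eyes, so r is descriptive and has no p. With the arrays of rat 1 left out r was 0.96, with those of rat 2 left out 0.99 and with those of rat 3 left out 0.97. Among 8593 other tested genes Zwint ranked 23rd in likeness to Snap25, and Snap25 ranked 26th in likeness to Zwint. An r over 0.9 was reached by 164 genes with Snap25 and by 135 with Zwint. The median r over all tested genes, the 2 genes included, was 0.10 with Snap25 and 0.09 with Zwint.

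The 5 genes most like Snap25 were Dync1i2 (r = 0.99), Hacd3 (0.99), Hpcal4 (0.99), Elovl2 (0.99) and Sptan1 (0.98). Dync1i2, an intermediate chain of the dynein motor, measured 858.8, 654.9 and 1269.4 in OS eyes, against 2322.3, 1147.6 and 2514.5 in OD eyes. Sptan1, which encodes the spectrin alpha chain of the membrane skeleton, measured 1774.6, 1548.5 and 3645.2 in OS eyes, against 6465.6, 2789.8 and 7471.2 in OD eyes. Hacd3 and Elovl2 are genes of fatty acid elongation, and Hpcal4 encodes a neuronal calcium-binding protein. Hpcal4 and Elovl2 were above background on 0 of 3 OS and 2 of 3 OD arrays, so their patterns rest on dim signal.

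The 5 genes most like Zwint were Gas5 (r = 0.99), Cox7a2l (0.99), Dync1i2 (0.99), Elovl2 (0.98) and Ccnt2 (0.98). Gas5, a noncoding host gene of small nucleolar RNAs, measured 676.6, 383.3 and 949.2 in OS eyes, against 2452.8, 1339.8 and 3924.9 in OD eyes, with log2 differences of -1.83, -1.76 and -2.03 in rats 1, 2 and 3. Cox7a2l encodes an assembly factor of respiratory supercomplexes and Ccnt2 a cyclin of the transcription elongation factor P-TEFb. Dync1i2 and Elovl2 were on both lists. All 8 genes were lower in OS in 3 of 3 rats, which their likeness to Snap25 or Zwint fixes.

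**Figure D3:**
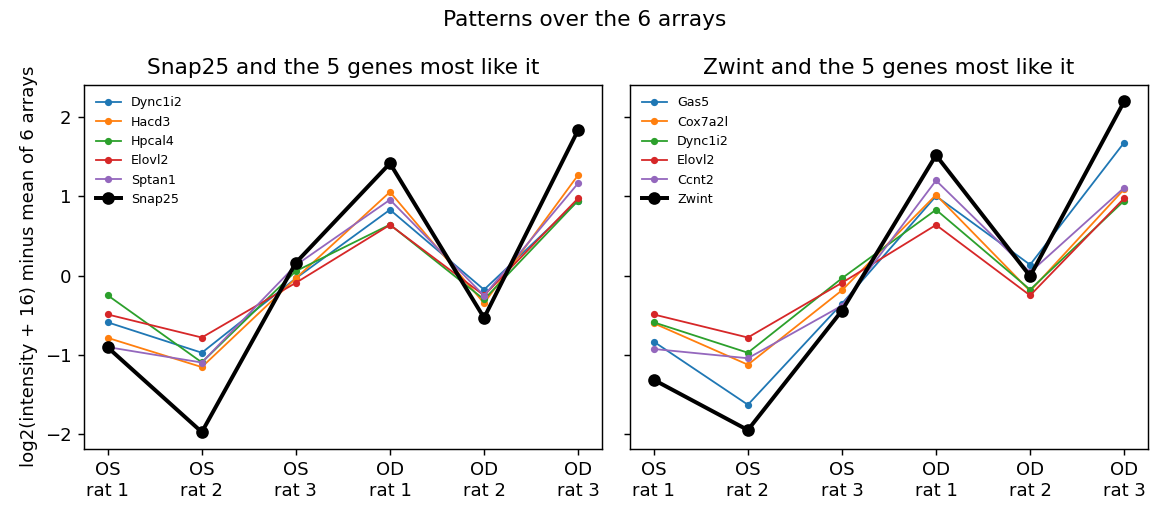
Pattern of Snap25 (left, black) and Zwint (right, black) and of the 5 genes most like each, as log2(intensity + 16) minus the mean of the 6 arrays. The OS eye of rat 2 is the lowest point of both black lines and the OD eye of rat 3 the highest.

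Of the partner lists, the SNARE genes had a median r of 0.35 with Snap25 and the kinetochore genes -0.04 with Zwint. Cplx1 had r = 0.87 with Snap25 and 0.93 with Zwint, and Dnajc5 had 0.87 with each. Sec22b had 0.77 and 0.84, while Zw10 had 0.17 and 0.38. These are correlations over 6 arrays that share animals and array scaling.

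Markers of the captured cells had lower values in OS beside those of Snap25 and Zwint. Of 18 ganglion cell markers 15 were on the array. Between 10 and 13 of these exceeded the background limit on each OS array, against 11 to 14 on each OD array. Most of the list was thus detected on all 6 arrays. Of 12 tested, 8 were lower in OS in all 3 rats and 0 were higher, where 15.6% of all genes tested were lower in every rat. Their median was -0.69, and -1.15 without rat 2. By limma 0 passed and 4 had an unadjusted p under 0.05, against 6.91% of all probe sets. Their summed signal was 15029.8 to 20921.6 in OS eyes and 26346.5 to 36840.1 in OD eyes. The list medians in rats 1, 2 and 3 were -1.20, -0.36 and -1.24. The tested markers had a median r of 0.55 with Snap25 and 0.63 with Zwint. Thy1, a surface glycoprotein of ganglion cells, had the highest r of these markers, 0.94 with Snap25 and 0.95 with Zwint. The transcription factor gene Pou4f1 had the lowest r of those tested, -0.01 and 0.24. Pou4f1 measured 71.1, 625.4 and 28.7 in OS eyes, against 594.2, 1388.2 and 351.0 in OD eyes. It exceeded the limit on 1 OS and 3 OD arrays. Thy1 and Pou4f1 were named after their values were seen. Thy1 measured 1103.8, 731.1 and 1213.0 in OS eyes, against 1919.7, 1412.1 and 1861.3 in OD eyes. The neurofilament gene Nefh differed by -1.72 ± 0.22, Nefm by -1.41 ± 0.43 and the RNA-binding protein gene Rbpms2 by -1.75 ± 0.73. Fewer ganglion cells among those captured and a smaller share of these transcripts in the RNA of each cell cannot be told apart here.

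Markers of amacrine cells, retinal interneurons that also contain SNAP25 and lie partly in the ganglion cell layer, were divided, with 5 of 8 tested genes lower and 3 higher in OS by mean. Of 14 listed, 12 were on the array, with 7 to 8 above the limit on OS arrays and 7 to 10 on OD arrays. Of the 8, 4 were lower in OS in all 3 rats and 0 were higher, where 15.6% of all genes tested were lower in every rat. By limma 0 passed and 4 had an unadjusted p under 0.05, against 6.91% of all probe sets. Their summed signal was 13287.6 to 26727.1 in OS eyes and 28966.7 to 78079.6 in OD eyes. The median was -1.19, but -0.40 without rat 1 and -0.42 with dim genes kept. Gad1, a GABA synthesis gene, measured 2052.3, 2784.9 and 4961.1 in OS eyes, against 8832.5, 5039.7 and 25386.2 in OD eyes, with r = 0.89 with Snap25 and 0.94 with Zwint; 1 of its 2 probe sets had a mean of the other sign. Pax6, a transcription factor gene, differed by -1.57 ± 0.58 and the calretinin gene Calb2 by -1.41 ± 0.66. On the other side, the mean differences were 0.83 ± 1.78 for the transcription factor gene Lhx9, 0.72 ± 2.45 for the glycine transporter gene Slc6a9 and 0.09 ± 1.44 for the tyrosine hydroxylase gene Th, all chosen after their values were seen. The defining markers Chat and Tfap2a were above the limit on 0 of 6 arrays. The part of amacrine RNA in the values of Snap25 and Zwint was not tested.

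For pigment epithelium markers the median was -1.14 (7 tested genes), at -2.67, 0.06 and -0.65 in rats 1, 2 and 3. Of the 7, 2 (28.6%) were lower in all 3 rats, where 15.6% of all genes tested were lower in every rat. Over the 9 on the array the summed signal was 2528.0 to 6259.6 in OS eyes and 7400.8 to 37972.2 in OD eyes. Among them Dct, a melanin synthesis gene, differed by -1.95 ± 0.50, Tyrp1 by -2.57 ± 2.51 and Pmel by -2.18 ± 2.28. By mean 6 of the 7 were lower in OS and 1 higher. The higher gene was Tyr, at 0.56 ± 1.22, named after its values were seen. For photoreceptor markers the median was 0.07 (11 tested genes), with a summed signal of 14033.9 to 32594.6 in OS and 14795.8 to 50036.7 in OD eyes. Of these 11, 2 (18.2%) were lower in all 3 rats, near the 15.6% of all genes tested. The 2 were Rom1 at -1.02 ± 0.17 and Prph2 at -1.01 ± 0.75, while Pde6a differed by 0.96 ± 0.85. For Mueller glia and astrocyte markers it was 0.05 (8 tested genes, 4 lower and 4 higher in OS by mean), but -0.52 without rat 3 and -0.39 with the 75th percentile filter. Among them were Rlbp1 at -1.51 ± 2.18, Glul at -1.08 ± 1.66 and Dkk3 at -0.77 ± 0.84, beside Aldh1l1 at 0.88 ± 1.44, Gfap at 0.86 ± 1.27 and Aqp4 at 0.80 ± 1.51, the last 3 named after their values were seen. Probe sets with a mean of the other sign numbered 1 of 2 for Tyrp1, 1 of 3 for Slc6a9, Glul and Aqp4, and 2 of 4 for Dkk3. These markers summed to 9623.9 to 30422.5 in OS and 10885.5 to 29382.7 in OD eyes.

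The median of the microglia and macrophage list was 0.40, with 5 of 7 tested genes higher and 2 lower in OS by mean. In all 3 rats 2 were higher and 0 lower, where 14.5% of all probe sets were higher in every rat, Lyz2 at 1.56 ± 0.02 and Fcgr3a at 1.89 ± 1.27. Laptm5 differed by -1.23 ± 1.33. The summed signal over 12 genes was 4377.6 to 13915.9 in OS eyes and 3809.8 to 5977.4 in OD eyes. By limma 0 genes of these 4 lists passed. An unadjusted p under 0.05 was found for 3 of 7 pigment epithelium, 2 of 11 photoreceptor, 1 of 8 glial and 2 of 7 microglial genes. The share over all tested probe sets was 6.91%.

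**Figure D4:**
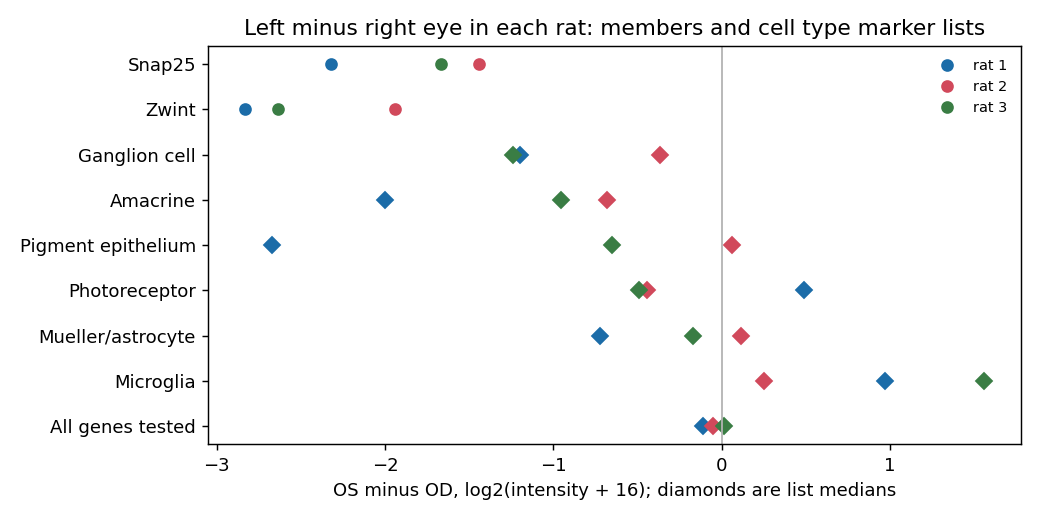
Difference between eyes in each rat, OS minus OD, on the log2(intensity + 16) scale, for Snap25 and Zwint (circles) and for the median of each cell type marker list and of all tested genes (diamonds). In rats 2 and 3 Snap25 and Zwint lie below every list median; in rat 1 the pigment epithelium median, -2.67, lies between them; the choice of both genes favours these positions.

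A measure of RNA integrity differed between eyes in the same rats. For the beta-actin control, the log2 ratio of the 3' to the 5' probe set was 2.93, 0.67 and 3.36 in the OS eyes of rats 1, 2 and 3, against 1.13, -0.09 and 1.94 in their OD eyes. A higher value means that less of the transcript's 5' part was represented. The OS value exceeded the OD value in 3 of 3 rats, by 1.32 ± 0.52 (SD, n = 3; exact permutation over the signs of the 3 differences, two-sided p = 0.25, which is the lowest reachable p). The order of rats by this difference, 1.79 in rat 1, 1.42 in rat 3 and 0.76 in rat 2, was that of the size of the Snap25 and Zwint differences. An order of 3 rats can match by chance, and the 2 genes had nearly the same pattern. In the OS eye of rat 2 Snap25 stood at 1.03 and Zwint at 0.92 of the background limit, so its differences are uncertain. The 3' to 5' ratio for Gapdh did not follow that order of rats, with differences of 0.29, 0.90 and -2.58 in rats 1, 2 and 3. Its mean difference was -0.46 ± 1.86 (exact permutation p = 1), and it was higher in OS in 2 of 3 rats. The part of RNA integrity in the values of Snap25 and Zwint was not tested.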

How the data were processed

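Ganglion cell RNA of 6 eyes was amplified linearly and hybridised to 1-colour Affymetrix arrays, per the labels' protocols. The deposited intensity values are linear, 1 per probe set, and were made by the authors with GCOS, per the submitters' processing notes, with version and settings not stated there. The 2% trimmed mean was 500.1 on every array, so no further normalization was applied. Of 31099 probe sets, the 57 Affymetrix controls were left out of the tests.

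Arrays were paired by rat, which titles and design text give; deviations from the eye means correlated at 0.109, 0.122 and 0.326 between the eyes of rats 1, 2 and 3. Values were analysed as log2(intensity + 16), which understates changes of dim probe sets. The brighter probe sets (mean over arrays at or above the 50th percentile, 15521 in number) entered limma 3.58.1 (R 4.3.3; rat and eye as terms, intensity trend, Benjamini-Hochberg, threshold 0.05), checked on simulated data. With 2 residual and 19.4 prior degrees of freedom, p-values lean on variance shared across probe sets. The brightest probe set stood for a gene. The number of arrays limits the precision.

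The members and the 12 gene lists were chosen with earlier results of these data known. Named were Snap25, Zwint, Stx1a, Vamp2, Syt1, Snap23, Snap29 and Zw10, up to 4 tested genes per partner list and 3 per marker list with the smallest p, and the 5 genes with the highest r. Some genes of this rule are not reported here. Alternatives were offsets, quantile normalization, filters, block, variance prior and leaving out each rat.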

Additional observations from a re-analysis of the deposited data

How the results depend on the processing

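The mean differences of Snap25 and Zwint kept their sign and moved by less than 1 SD with offsets of 1 and 64 and with quantile normalization. Without a replicate block (chosen after seeing the data) the means, -1.81 and -2.47, are the same by design. Leaving out 1 of 3 rats could neither move a mean by 1 SD nor change a sign that all 3 rats share. Those runs therefore give only a range. Without 1 rat the means ran from -1.99 to -1.55 for Snap25 and from -2.73 to -2.29 for Zwint. Averaging probe sets could not be run, since each gene has 1. Between eyes, the 2 calls of the limma fit became 9 with the offset at 64 and 9 when dim probe sets were kept, 1 with a robust prior, and 0 with each of these: offset 1, quantile normalization, the 75th percentile filter, no replicate block, a random replicate block, and no trend. Leaving out a rat gave 18 to 59 calls. Between rats, the 390 calls became 237 after quantile normalization, 152 with the 75th percentile filter, 0 without the trend, and 6 to 620 when a rat was left out. For Snap25 the adjusted p between rats was 0.044 at offset 64, and 0.00535 to 0.817 when a rat was left out; for Zwint that range was 0.0444 to 0.999. Both lowest values are without rat 1. The causes were not tested. Of 96 recomputed list medians, 92 moved by less than their spread between rats and 12 changed sign. Signal near background limits the SNARE partners, the kinetochore genes and the OS eye of rat 2.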
